A study of Rattus norvegicus with 36 samples.

Results

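Rat precision-cut lung slices given TGFb together with Pirf were compared with slices given TGFb alone, to ask what the drug changes in a slice model of lung fibrosis. The 12 libraries were chosen by their sample titles, 6 with TGFb and Pirf and 6 with TGFb alone, out of 36 in the series. Pirf is read here as pirfenidone. All 12 slices carried the label for time 72, for which no unit is given, and neither the dose of Pirf nor that of TGFb is stated. The other 24 libraries, 6 in each group, came from slices with TGFb and Nint, slices with TGFb and Sora, untreated slices at 72 and untreated slices at 0. Nint and Sora are read as the kinase inhibitors nintedanib and sorafenib. No label gives a rat strain, age or sex, or says whether the 6 libraries of a group came from separate animals. The p-values therefore measure only the spread between these libraries, which may be technical.

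Precision-cut lung slices are thin living sections that keep airways, vessels and alveoli in place, and cutting and culturing them changes gene expression without any added factor. TGFb is a secreted growth factor that signals through its receptors to SMAD transcription factors, and it drives fibroblasts to deposit matrix. Pirfenidone is an oral drug for idiopathic pulmonary fibrosis that lowers matrix and inflammatory gene expression in many models, and its direct target is not settled.

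The files identify genes by Ensembl ID only, and 0 of the 15644 genes tested could be paired with a symbol in the annotation used here. Groups of genes are therefore described by how they behaved in libraries outside the Pirf comparison, and the tissue label could not be checked against lung markers. The 2 IDs that fell most and the 2 that rose most are described one by one. The rule that picked them used fold change, expression, the call with Pirf and non-overlap of the groups. Their calls and their non-overlap with Pirf against TGFb alone are therefore a description.

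Total counts lay between 20347040 and 32299405 in the Pirf libraries and between 21288889 and 30499057 in those with TGFb alone (two-sided exact permutation test, p = 0.68, adjusted over 5 library measures 0.68). The scaling factor that edgeR's TMM method assigns to a library averaged 1.07 ± 0.00869 in Pirf libraries and 0.964 ± 0.051 in TGFb-alone libraries (SD, n = 6 each). The ranges did not overlap, at 1.06 to 1.08 and 0.894 to 1.02 (p = 0.00216 by the same exact test, adjusted p = 0.0108). Genes outside the authors' table of expressed protein-coding genes, called the coding table here, took 13.6% ± 0.728 of the counts of Pirf libraries and 11.7% ± 0.676 of those of TGFb-alone libraries (p = 0.00433 by the exact test, adjusted p = 0.0108). The part that these library differences play in the gene results was not tested. The 20 most abundant genes of a library took 17.3% ± 0.734 in Pirf libraries and 16.3% ± 1.13 in TGFb-alone libraries (p = 0.106 by the exact test, adjusted p = 0.177, and 0.0325 without TGFb-alone replicate 4).

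The response to Pirf took in about every other gene, mostly with small changes. At an adjusted p under 0.05 in edgeR's quasi-likelihood test, 8061 of 15644 genes (51.5%) were called. Of these, 3926 (25.1% of genes tested) rose with Pirf and 4135 (26.4%) fell. A change of at least 2-fold was called for 729 genes that rose (4.66%) and 888 that fell (5.68%), 10.3% together, at least 4-fold for 226 and 202, and at least 8-fold for 52 and 64. In 4652 genes (29.7%) the 6 Pirf libraries did not overlap with the 6 given TGFb alone, with 2094 higher (13.4%) and 2558 lower (16.4%). In slices, fewer cells of a type and less RNA per cell cannot be told apart, and no marker gene could be named here to follow either. The balance of rises and falls rests on the scaling. Without scaling factors 5973 genes rose and 2594 fell, 971 and 677 of them at least 2-fold, a setting under which the median log2 fold change over all genes was 0.153 in place of 0.

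The most abundant genes leaned towards lower levels with Pirf. Among 1500 genes with a mean normalized count over 3000 (counts after TMM scaling, at the mean library size and not divided by gene length), 204 rose and 720 fell. Among 3987 genes with a mean under 100, 991 rose and 594 fell. Over all 15644 genes, 3926 rose and 4135 fell. Without scaling factors the abundant genes split into 416 that rose and 468 that fell, and the scarce ones into 1268 and 472. All genes together then split into 5973 that rose and 2594 that fell. Precision differed with the depth behind a gene. The median standard error of a log2 fold change was 0.37 for genes with a mean under 30 and 0.07 for genes between 1000 and 3000, and the smallest called change was 0.42 in the first set and 0.08 in the second.

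Of 1164 genes outside the coding table, 346 (29.7%) were called, and of 14480 genes in it, 7715 (53.3%). Of those outside it, 172 genes rose and 174 fell (272 and 135 without scaling factors). A change of at least 2-fold was called for 64 that rose and 77 that fell, beside 729 and 888 of all genes tested. Over all genes tested the share called rose with abundance, from 34% at a mean normalized count under 30 to 61.6% at a mean over 3000. Genes inside and outside the coding table were not matched for abundance, and the difference between their shares called was not tested.

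Among IDs that met the rule, the steepest fall was that of ENSRNOG00000032832, a gene in the coding table. Its normalized counts with Pirf were 9.53, 13.8, 16.6, 7.71, 26.9 and 11.8 in replicates 1 to 6, against 431, 824, 219, 822, 340 and 397 with TGFb alone. The highest Pirf library lay below the lowest with TGFb alone, as the rule required. The log2 fold change was -5.08 (SE 0.42, adjusted p = 3.88e-11, edgeR). The next largest fall was that of ENSRNOG00000032626, also in the coding table. It held 78.8, 69.8, 53, 43, 108 and 42.4 normalized counts with Pirf, against 2130, 3010, 1010, 3660, 1520 and 1410 with TGFb alone (-4.98 on the log2 scale, SE 0.42, adjusted p = 4.99e-11). Again the groups did not overlap, as the rule required. In both IDs replicate 5 was the highest Pirf library, and replicates 2 and 4 were the highest with TGFb alone.

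Neither ID passed the test with Nint against TGFb alone (adjusted p = 0.964 and 0.836, edgeR) or with Sora (adjusted p = 0.503 and 0.668), comparisons that called 3.09% and 15.4% of all genes. ENSRNOG00000032832 averaged 14.4 ± 6.88 normalized counts with Pirf, 539 ± 188 with Nint, 399 ± 187 with Sora and 505 ± 256 with TGFb alone (SD, n = 6 each). Pirf slices differed from Nint slices by -5.17 on the log2 scale (SE 0.42, adjusted p = 1.83e-11) and from Sora slices by -4.74 (SE 0.42, adjusted p = 2.46e-10). For ENSRNOG00000032626 the same differences were -5.29 (SE 0.42, adjusted p = 1.23e-11) and -5.22 (SE 0.42, adjusted p = 3.35e-11). Over all genes tested, 54.6% were called between Pirf and Nint and 42.1% between Pirf and Sora. These differences, and those from time 0 below, reuse the Pirf libraries that helped to choose the IDs, so they are a description. Both IDs also lay below their level in slices at time 0, a comparison in which 75.4% of genes were called. ENSRNOG00000032832 held 7.71 to 26.9 normalized counts with Pirf and 21.7 to 90.9 in slices at time 0, ranges that overlapped (log2 difference -2, SE 0.44, adjusted p = 0.000152 by edgeR and 0.0535 by limma-voom). ENSRNOG00000032626 held 42.4 to 108 with Pirf and 254 to 647 at time 0, with no overlap (log2 difference -2.79, SE 0.40, adjusted p = 1.58e-07). Untreated culture, which changed 73.2% of all genes, raised both IDs. They stood at 684 ± 233 normalized counts at 72 against 59.9 ± 24.8 at 0 for ENSRNOG00000032832, and at 4070 ± 2310 against 466 ± 148 for ENSRNOG00000032626 (SD, n = 6 each). The log2 fold changes were 3.52 (SE 0.37, adjusted p = 3.56e-10) and 3.13 (SE 0.37, adjusted p = 3.7e-09). Neither ID had a higher mean with TGFb alone than in untreated slices at 72. The log2 fold changes there were -0.44 (SE 0.32, adjusted p = 0.348) and -0.94 (SE 0.34, adjusted p = 0.0375). Pirf against untreated slices at 72, which called 52% of genes, gave -5.51 (SE 0.42) and -5.92 (SE 0.43). Both comparisons reuse libraries that helped to choose the IDs.

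**Figure D1:**
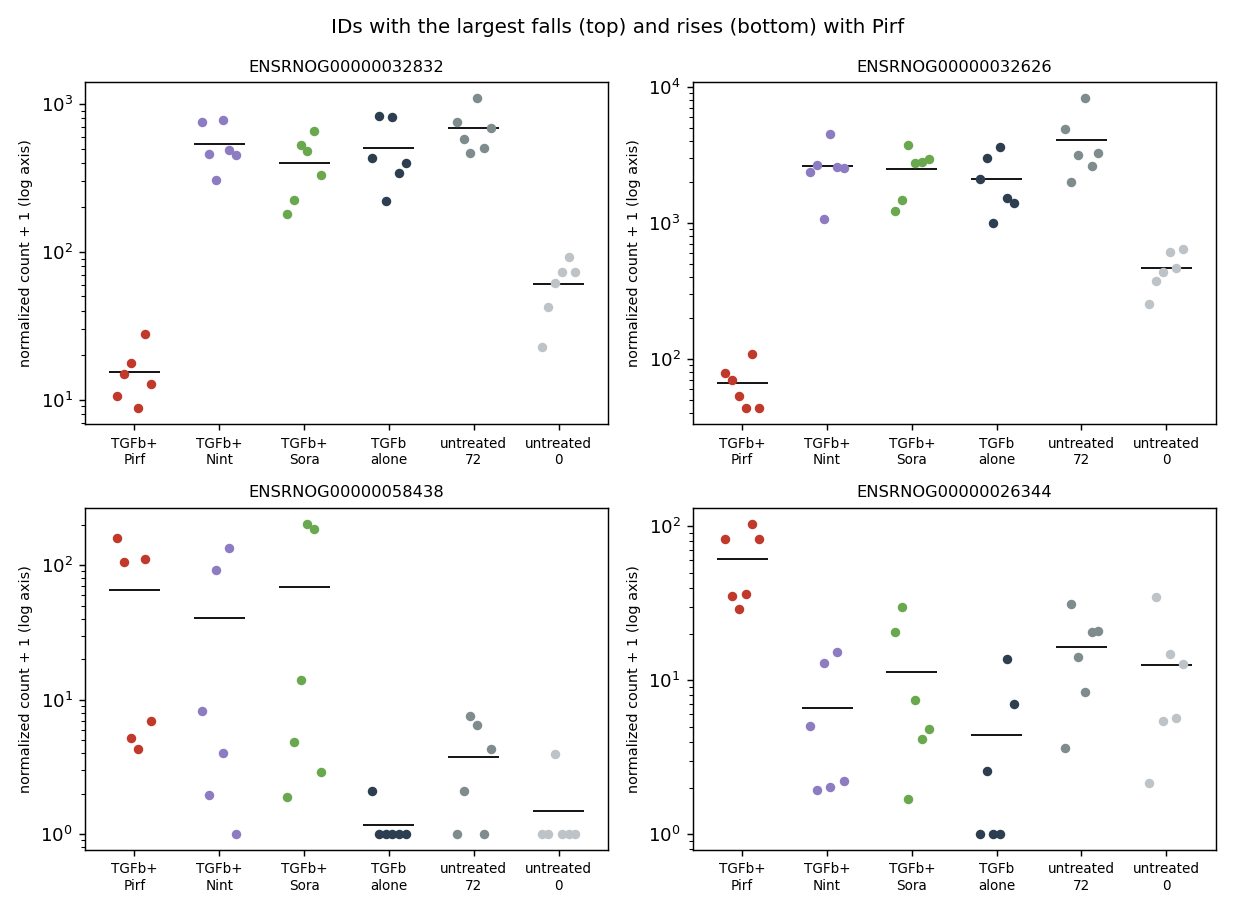
Normalized counts plus 1 (log axis) of 4 gene IDs in all 36 libraries, by group, with each point a library and each line a group mean. The 2 IDs in the top row fall with Pirf below every library with Nint, Sora or TGFb alone, whereas ENSRNOG00000058438 is high in some libraries of all 3 drug groups and low in others.

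The 2 IDs that rose most were scarce or unseen with TGFb alone. ENSRNOG00000058438, which is outside the coding table, held 158, 105, 4.16, 3.31, 110 and 5.92 normalized counts with Pirf, against 1.08 in 1 library and 0 in the other 5 with TGFb alone. Of its 492 raw counts with Pirf, 479 came from 3 libraries and 13 from the other 3. Set against 1 raw count with TGFb alone, the ratio was 426, with an exact 95% counting interval of 76.1 to 16900 that leaves out the spread between libraries (adjusted p = 7e-04, edgeR). The ID ranged from 0 to 133 normalized counts with Nint and from 0.888 to 203 with Sora, and Pirf did not pass the test against either drug (adjusted p = 0.556 and 0.965, edgeR). Nint and Sora slices also held more of it than slices with TGFb alone (adjusted p = 0.0293 and 0.00401), libraries that all 3 drug comparisons share. Against untreated slices at 72, where it held 0 to 6.56, the log2 difference was 4.42 (SE 1.3, adjusted p = 0.00497, and 0.0717 by limma-voom), a comparison that called 52% of genes. ENSRNOG00000026344, in the coding table, held 81.4, 34.5, 28.1, 35.3, 103 and 81.9 normalized counts with Pirf, against 0, 1.56, 0, 0, 12.8 and 5.97 with TGFb alone. The groups did not overlap, as the rule required (4.11 on the log2 scale, SE 0.82, adjusted p = 0.000101). It averaged 60.7 ± 31.8 with Pirf, 5.6 ± 6.03 with Nint, 10.4 ± 11.2 with Sora and 15.5 ± 9.87 in untreated slices at 72 (SD, n = 6 each). Its log2 difference between Pirf and Nint was 3.41 (SE 0.77, adjusted p = 0.000368), between Pirf and Sora 2.57 (SE 0.71, adjusted p = 0.00423), and between Pirf and untreated slices 1.96 (SE 0.69, adjusted p = 0.0178). The last difference had an adjusted p of 0.0593 by limma on the deposited log2 values. For both rising IDs, comparisons with other groups reuse the Pirf or TGFb-alone libraries that helped to choose them, and are a description.

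A wider set held the 12 lowest and 12 highest log2 fold changes among called genes whose libraries did not overlap and whose higher group averaged at least 50 normalized counts. They were selected on the Pirf comparison, so their changes there are a description. The 12 falls had log2 fold changes of -5.08 to -3.66 with standard errors of 0.22 to 0.58, and the 12 rises had log2 fold changes of 3.23 to 7.79 with standard errors of 0.41 to 1.84. The value of 7.79 is that of ENSRNOG00000058438 and rests on its 1 raw count with TGFb alone. The Nint and Sora comparisons use the same TGFb-alone libraries that helped to choose these genes, so their values are given side by side only. With Nint against TGFb alone, which called 3.09% of all genes, 0 of the 12 falls and 1 of the 12 rises were called, and the log2 fold changes of the falls lay between -0.37 and 0.44. With Sora against TGFb alone, 4 of the 12 falls were called lower, as were 8.37% of all genes, and 1 of the 12 rises was called higher, as were 7.01% of all genes. Untreated culture shares no library with the choice. Of the 12 falls, 9 had been called higher in untreated slices at 72 than at 0 and 1 lower, where 38% of all genes were called higher and 35.3% lower. Of the 12 rises, 0 had been called higher in untreated culture and 2 lower.

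Many genes set the Pirf libraries apart from all other slices at 72. In 808 genes (5.16% of those tested) all 6 Pirf libraries lay above all 24 other libraries at 72, and in 1192 genes (7.62%) all 6 lay below. Without scaling factors the numbers were 1202 and 787. The same count for slices with Nint gave 6 genes above and 66 below, and for slices with Sora 7 above and 3 below. For slices with TGFb alone it gave 31 above and 7 below, and for untreated slices 255 and 270. A group close to another can lie beyond all others in few genes only, and Nint against TGFb alone called 3.09% of all genes. These counts are therefore a description, not a measure of the size of each drug's effect, with no test between groups.

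The median standard deviation of log2 CPM, a library-scaled log count, over genes was 0.133 with Pirf, 0.143 with Nint, 0.197 with Sora and 0.193 with TGFb alone. In 27.4% of genes it was larger with Pirf than with TGFb alone. To see how evenly the response appeared, each of the 12 libraries was left out in turn, genes changed at least 2-fold were chosen from the rest, and the left-out library was placed on a scale from 0% (mean of the other TGFb-alone libraries) to 100% (mean of the other Pirf libraries). Between 1470 and 1668 genes were chosen each time. The left-out Pirf libraries lay at 98.8%, 93.3%, 87.2%, 92.6%, 104% and 98.6% in replicates 1 to 6, and those with TGFb alone at 1.51%, 4.89%, 14.6%, -17.1%, 26.7% and 12%. Each left-out Pirf library had at least 86.6% of the chosen genes on the Pirf side of the midpoint, and no library with TGFb alone had more than 24.1%.

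The Pirf libraries took a different order over genes that rose and over genes that fell. Over the rising genes Pirf replicates 3 and 4 lay lowest, at 69.8% and 79.4%, and replicates 1, 5 and 6 lay highest, at 106%, 121% and 112%. Over the falling genes replicates 3 and 4 lay highest, at 106% each, and replicates 1, 5 and 6 lay at 92.2%, 88.9% and 87%. Among slices with TGFb alone, replicate 5 lay at 50.3% over the rising genes and at 0.399% over the falling ones, and replicate 3 at -2.39% and 29.2%. Both scores use scaled values, so an offset in the scaling of a library moves them in opposite directions. The placement was not run without scaling factors, and the part of the scaling in these orders was not tested.

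**Figure D2:**
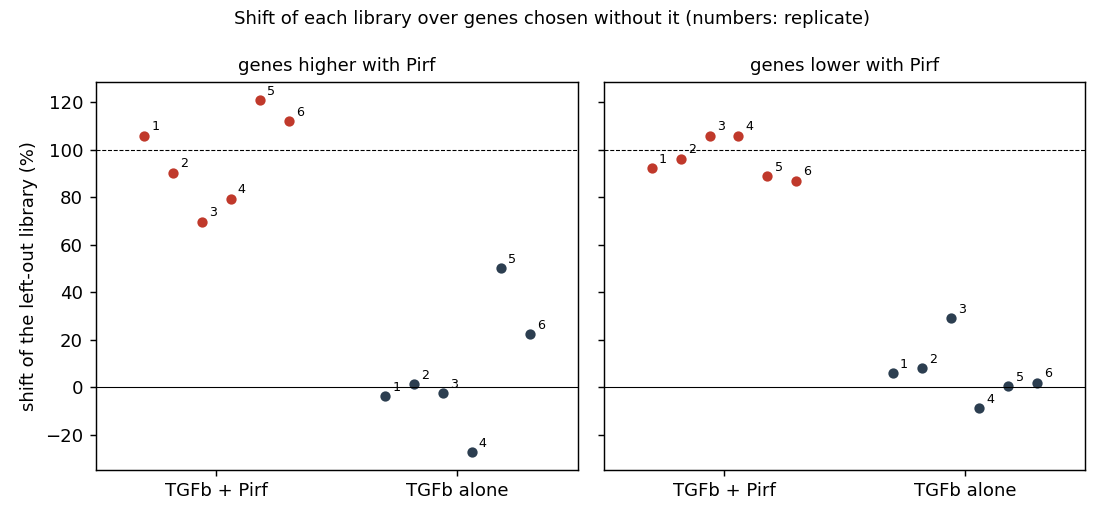
Shift of each library (%), over genes chosen without it, for genes higher with Pirf (left) and lower with Pirf (right). Points are libraries, numbered by replicate. The Pirf libraries spread from 69.8% to 121% over rising genes and from 87% to 106% over falling genes, and all lie above the libraries with TGFb alone.

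Many genes that culture itself changed lay nearer to their level at time 0 with Pirf than with TGFb alone. The untreated libraries at 72 and at 0 share no library with the Pirf comparison. Of 2276 genes raised at least 2-fold by untreated culture (14.5% of genes tested), 1192 (52.4%) were lower with Pirf and 167 (7.34%) were higher, where 26.4% and 25.1% of all genes were. Their median log2 fold change with Pirf was -0.39, against 0 over all genes tested. Of 2019 genes lowered at least 2-fold by culture (12.9% of genes tested), 661 (32.7%) were higher with Pirf and 308 (15.3%) were lower, with a median of 0.18. The culture-raised genes made up 28.8% of all genes lower with Pirf, and the culture-lowered ones 16.8% of all genes higher with Pirf. Without scaling factors 967 culture-raised genes (38.5%) were lower and 343 (13.7%) higher with Pirf. In that setting 786 culture-lowered genes (42.3%) were higher and 197 (10.6%) lower. These shares have another background, since 5973 of all 15644 genes were then higher with Pirf and 2594 lower.

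Replicate 3 of the untreated slices at time 0 stood towards the cultured slices. When it was left out, 1258 culture-raised genes (51.8%) were lower with Pirf and 684 culture-lowered genes (33.2%) were higher.

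The median Pirf change was larger in genes with a larger culture change, and on the raised side so was the share called. Among 258 genes that culture raised by a log2 fold change above 3, 68.2% were lower with Pirf and 3.1% higher, with a median log2 fold change of -1.16. Among 455 genes raised by 2 to 3 the median was -0.81, and among 1672 genes raised by 1 to 2 it was -0.26. On the other side, the median was 0.43 over 221 genes that culture lowered by more than 3, 0.33 over 426 genes lowered by 2 to 3, and 0.14 over 1445 genes lowered by 1 to 2. The shares called higher with Pirf in these lowered sets were 33%, 35.9% and 31.6%, close to the 34% among genes lowered by 0.5 to 1 and the 31.3% among genes lowered by less. Across all 15644 genes, which are not independent replicates, the log2 fold changes of untreated culture and of Pirf had a Pearson correlation of -0.32 and a Spearman correlation of -0.31. Without scaling factors the medians were -1, -0.62 and -0.07 over the 3 raised sets, beside the shift of 0.153 in all genes. The shares called higher in the lowered sets were then 36.6%, 44.6% and 41.8%. They were 49.6% among genes lowered by 0.5 to 1 and 49.6% among genes lowered by less.

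**Figure D3:**
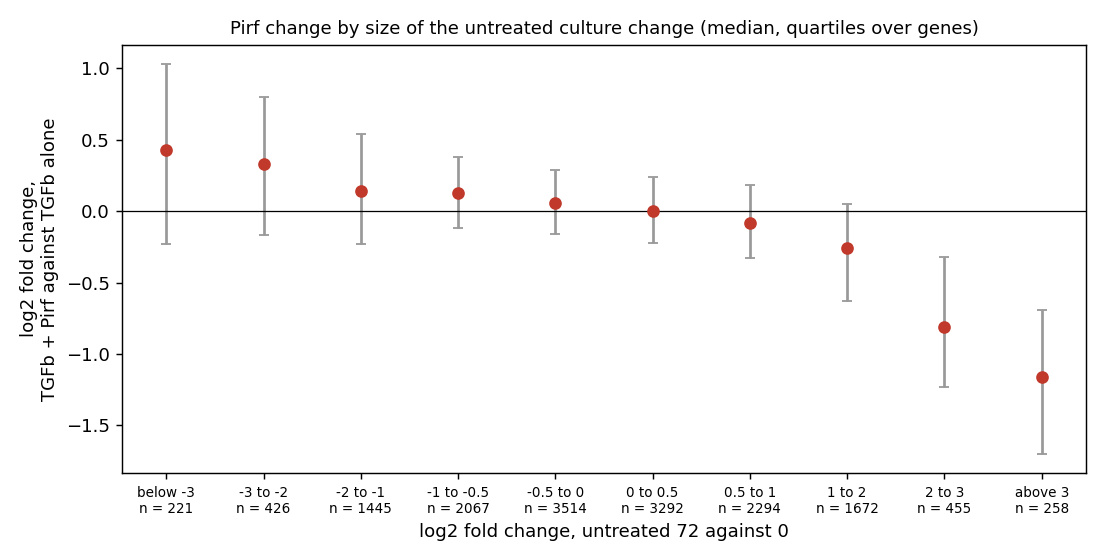
Log2 fold change of TGFb with Pirf against TGFb alone (vertical axis) for genes grouped by the log2 fold change of untreated slices at 72 against 0 (horizontal axis, n genes per group). Points are medians and bars the quartiles over genes. The median lies at -1.16 for genes that culture raised most and at 0.43 for those it lowered most.

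Over the culture genes, the Pirf libraries lay part of the way from the untreated mean at 72 towards time 0. Over all genes tested, Pirf against time 0 called 75.4%, and untreated slices at 72 against time 0 called 73.2%. Each library was placed on a scale from the mean at time 0 (0%) to the untreated mean at 72 (100%), using the mean log2 CPM of the culture genes. Over the culture-raised genes the Pirf libraries lay at 79.6%, 78.4%, 72.8%, 74.8%, 80.4% and 82%, and the TGFb-alone libraries at 101%, 104%, 100%, 105%, 107% and 103%. No Pirf library reached the lowest library with TGFb alone. Libraries with Nint averaged 101% ± 2.44 and those with Sora 98.4% ± 2.37 (SD, n = 6 each). Over the culture-lowered genes Pirf libraries averaged 93.4% ± 1.07, Nint libraries 106% ± 0.548, Sora libraries 98.6% ± 1.87 and TGFb-alone libraries 105% ± 2.25 (SD, n = 6 each). Without scaling factors the Pirf and TGFb-alone means were 84.2% ± 3.8 and 99% ± 4.74 over raised genes, and 88.7% ± 1.5 and 108% ± 5.82 over lowered genes.

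Single genes were also set against the untreated means, with the caution that their choice, for a culture change and an opposite Pirf change, favours such counts. Of the 1192 culture-raised genes that fell with Pirf, 1104 had a lower mean with TGFb and Pirf than in untreated slices at 72, and 349 had a lower mean with TGFb alone. The Pirf mean was below that at time 0 in 74 of them. Of the 661 culture-lowered genes that rose with Pirf, 573 had a higher mean with TGFb and Pirf than in untreated slices at 72, and 196 had a higher mean with TGFb alone. The Pirf mean was above that at time 0 in 40 of them.

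**Figure D4:**
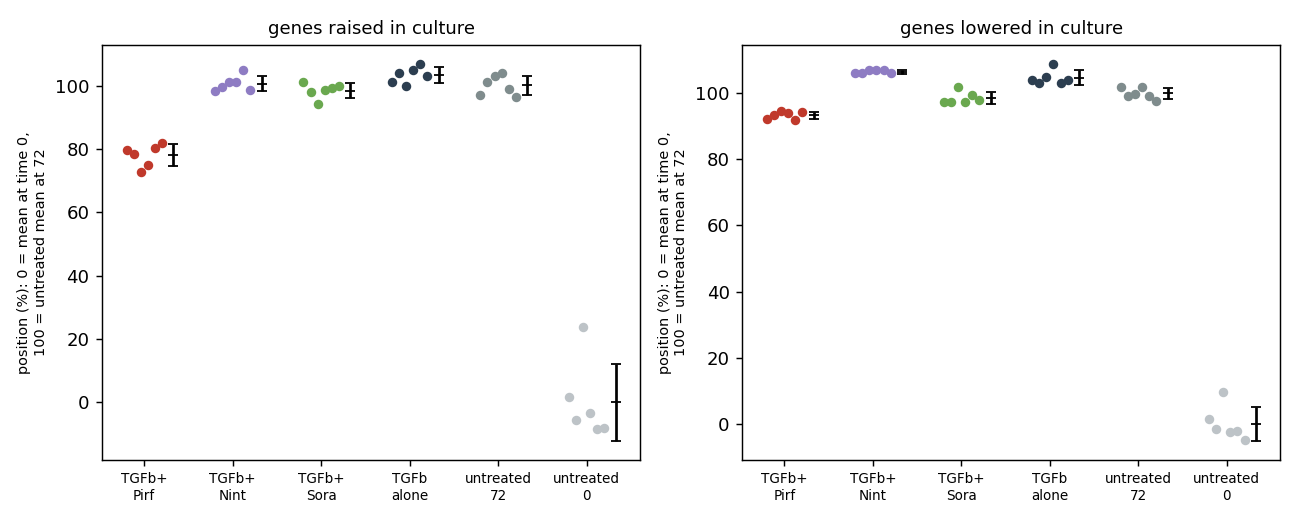
Position of each library (%) between the mean at time 0 and the untreated mean at 72, over genes raised (left) and lowered (right) at least 2-fold by untreated culture. Points are libraries and bars the mean ± SD of 6. The untreated libraries were used to choose the genes. The Pirf libraries sit at 72.8% to 82% on the left, below every other library at 72.

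Many genes that differed between slices with TGFb and Nint and untreated slices moved the other way with Pirf. TGFb alone against untreated slices cannot serve for this, because the TGFb-alone libraries enter the Pirf comparison as well. Slices with TGFb and Nint were therefore set against untreated slices at 72, a comparison that called 26.4% of genes and in which effects of TGFb and of Nint cannot be told apart. Of 397 genes at least 2-fold higher with TGFb and Nint than in untreated slices (2.54% of genes tested), 192 (48.4%) were lower with Pirf and 28 (7.05%) higher. Their median log2 fold change with Pirf was -0.59. Of 641 genes at least 2-fold lower with TGFb and Nint (4.1% of genes tested), 250 (39%) were higher with Pirf and 80 (12.5%) lower, with a median of 0.42. The correlation across all genes was -0.34 (Pearson) and -0.29 (Spearman).

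Genes raised by culture were lower with Pirf also where TGFb with Nint had no called effect. Of 1646 culture-raised genes that were not called between TGFb with Nint and untreated slices, 881 (53.5%) were lower with Pirf and 102 (6.2%) higher. Where TGFb with Nint raised them further, 222 of 375 (59.2%) were lower with Pirf and 19 (5.07%) higher. Where TGFb with Nint lowered them, 89 of 255 (34.9%) were lower and 46 (18%) higher. Among culture-lowered genes, 196 of 430 (45.6%) were higher with Pirf where TGFb with Nint lowered them further, and 429 of 1365 (31.4%) where it had no called effect. Where TGFb with Nint raised culture-lowered genes, 36 of 224 (16.1%) were higher with Pirf and 68 (30.4%) lower. Without scaling factors 754 of the 1908 culture-raised genes not called for TGFb with Nint (39.5%) were lower with Pirf and 244 (12.8%) higher. Over all 15644 genes that setting gave 2594 lower and 5973 higher. The 2 comparisons that form these classes share the untreated libraries at 72.

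A last comparison, which called 11% of genes, set slices with Sora against slices with Nint, both with TGFb, and likewise shares no library with the Pirf comparison. Of 72 genes at least 2-fold lower with Sora than with Nint (0.46% of genes tested), 57 (79.2%) were also lower with Pirf and 1 (1.39%) was higher. Of 132 genes at least 2-fold higher with Sora (0.844%), 70 (53%) were also higher with Pirf and 14 (10.6%) lower. The median log2 fold changes with Pirf were -1.42 and 0.70. Across all genes the Pearson correlation was 0.46 and the Spearman correlation 0.48. The 57 genes became 116 of a larger set without Sora replicate 5 and 37 of a smaller one without Sora replicate 3, at 78.9% and 86%, and the 70 genes became 42 without Sora replicate 4, at 56%. The 14 genes became 7 without Sora replicate 4, 8 without Nint replicate 4 and 9 without TGFb-alone replicate 3.

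**Figure D5:**
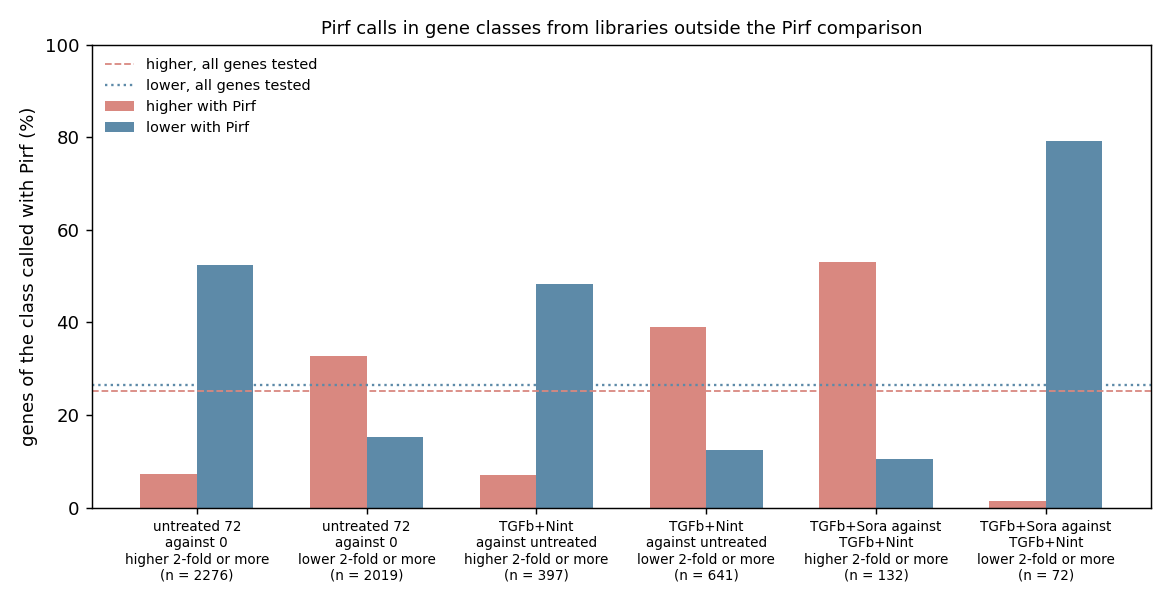
Share of genes (%) called higher or lower with Pirf against TGFb alone, in classes of genes changed at least 2-fold in comparisons that hold no Pirf or TGFb-alone library (n genes under each pair of bars). Lines mark the shares over all genes tested, 25.1% higher and 26.4% lower. The largest bar is that of genes lower with Sora than with Nint, 79.2% of which were lower with Pirf.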

How the data were processed

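The 36 libraries were sequenced as stranded total RNA depleted of ribosomal RNA, from RNA isolated on an RNeasy 96 kit, per the labels' protocols. The tools RSEM and edgeR and the build Rnor_6.0 are named, per the submitters' processing notes. The aligner, annotation release and use of strand were not given in the sources used here, so overlapping genes cannot be told apart. The authors deposited expected counts per gene, unscaled, for 32883 Ensembl IDs. RSEM divides reads among near-identical genes, and counts of those are uncertain. The authors' deposited log2 CPM table holds 14984 genes, and its values equalled edgeR's log2 CPM from the count table to within 5e-14 (prior count 0.25).

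Expected counts were rounded and analysed with R 4.3.3 and edgeR 4.0.16. After filterByExpr by group, 15644 genes were kept. A single glmQLFit took in all 36 libraries with TMM factors, 1 coefficient for each group and no further term. Contrasts were tested with glmQLFTest, and p-values were adjusted over the 15644 genes (Benjamini-Hochberg). An adjusted p with no tool beside it comes from that test. The SE of a log2 fold change is its size over the root of the F statistic. Library measures were compared with two-sided exact permutation tests. The fit was tested on simulated data.

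IDs were named if called, with no overlap between the groups of 6 and a mean of at least 50 normalized counts in the higher group, in order of log2 fold change. The libraries compared, the gene classes and this rule were chosen with earlier results of these data known. Lists of pathway genes and cell type markers by symbol were not run, since 0 IDs matched a symbol. Column headers share a code that no label explains and differ in a well code. The well code served only to link columns to samples and did not enter the fit, so no batch was separated. The alternatives were no scaling factors, DESeq2 1.42.0 size factors and test, limma-voom (limma 3.58.1), no filter, 12 libraries only, a replicate block, a test against a fold of 1.2 and leaving out each of the 12 libraries. Leaving out each of the other 24 libraries, and limma on the deposited log2 CPM, were added after seeing the data.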

Additional observations from a re-analysis of the deposited data

Results flagged for a closer look

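Libraries far from the other 5 of their group were looked for in 48 sets of 6 values, and 4 were found. The rule marks about 1 in 20 sets by chance where values are normal and independent, which sparse counts are not. ENSRNOG00000058438 stood at 1.08 normalized counts in TGFb-alone replicate 1 and at 0 in the other 5, and at 2.97 in replicate 3 at time 0 and 0 in the other 5. Both values rest on a few reads, and the rule marks any set in which the other 5 values are 0. Over the culture-raised genes, replicate 3 at time 0 lay at 23.8% of the way to the untreated mean at 72, and the other 5 between -8.42% and 1.57%. Over the culture-lowered genes, TGFb-alone replicate 4 lay at 109%, and the other 5 between 103% and 105%. The cause of these values was not tested.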

How the results depend on the processing

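The direction of the Pirf change of each of the 4 IDs, and its call, held under all alternatives that tested the ID. Without scaling factors 5973 genes rose and 2594 fell. Against a fold of 1.2 there were 4099 called genes, 1888 higher and 2211 lower with Pirf. With the replicate block 8121 genes were called, 4027 higher and 4094 lower, and no count moved by over 1.5 times. Same-numbered Pirf and TGFb-alone libraries had correlations of their deviations from -0.31 to 0.35, and 2 of 6 Pirf libraries matched their own number best. So few values cannot settle whether the numbers mark pairs. No label says that they do, so they were not taken as pairs. Leaving out 1 of the 12 libraries gave 7389 to 8230 called genes.

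The share of the class stands in brackets below, since the size of a class changed with some settings. For genes raised by culture, those higher with Pirf numbered 343 (13.7%) without scaling factors and 84 (3.69%) against a fold of 1.2. For genes lowered by culture, those lower with Pirf numbered 197 (10.6%) and 190 (9.41%) in these settings. For genes lower with TGFb and Nint, those lower with Pirf numbered 52 (8.11%) against a fold of 1.2. For genes higher with Sora than Nint, those lower with Pirf numbered 9 (4.55%) without scaling factors and 8 (6.61%) without a filter. They numbered 7 (5.3%) against a fold of 1.2, 5 (4.39%) with limma-voom and 6 (5.83%) with limma on the deposited log2 CPM. When 1 library was left out they numbered 7 to 17 (6.82% to 13.1%). In the same class, those higher with Pirf numbered 117 (59.1%) without scaling factors and 42 to 102 (46.2% to 58.3%) when 1 library was left out. For genes lower with Sora, those lower with Pirf numbered 36 (67.9%) without scaling factors and 88 (77.2%) with limma-voom. When 1 library was left out they numbered 37 to 116 (73.6% to 87.2%), where the main fit gave 79.2%. In the same class, those higher with Pirf numbered 2 (1.75%) with limma-voom. The excess of the 20 most abundant genes with Pirf, 0.99 percentage points, ranged from 0.7 to 1.36 when 1 library was left out, and passed the test without TGFb-alone replicate 4 (exact permutation, adjusted p = 0.0325). Against untreated slices at 72, ENSRNOG00000058438 lost its call with limma-voom (adjusted p = 0.0717). The cause of these shifts was not tested. Gene lists fixed by symbol were not run.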
